A study of Mus musculus with 19 samples.

Results

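Interleukin-2 (IL-2) was given to mouse natural killer (NK) cells in culture, and the cells were compared with untreated NK cells: 4 IL-2 samples against 3 untreated samples, 7 of the 19 samples of the series. The samples were chosen by their titles, as those with IL-2 and no inhibitor code and those named untreated. All cells were splenic NK cells of 6-week-old male C57BL/6 mice, enriched by negative selection with an EasySep kit, with NK1.1 named as the marker. The IL-2 cells received 250 U/ml for 8 h, per the submitters' design text. The titles give 8 h for IL-2 samples 3 and 4 and untreated samples 3 and 4, and no time for the other 3 samples. The other 12 samples held IL-2 with an inhibitor of JAK1 or JAK3. They served here for the estimate of the spread between samples and of the scale difference described below, which enters the fitted changes. RNA was hybridized to Affymetrix mouse gene arrays, 1 per sample. The labels do not tell whether replicate samples were separate animals, cultures or preparations of 1 pool. The p-values therefore rest on the spread among the samples, and part of that spread may be technical.

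IL-2 is a growth factor for T and NK cells. It binds a receptor built from an alpha, a beta and a common gamma chain, and the kinases JAK1 and JAK3 on the beta and gamma chains then phosphorylate STAT factors, chiefly STAT5, which enter the nucleus and switch on target genes. In NK cells it is known to raise the killing machinery, to enlarge the cell and to prepare it for division.

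The deposited intensities lay on a pair of scales. IL-2 samples 1 and 2 and untreated sample 2 belonged to a high-intensity set of 7 samples with log2 medians between 7.49 and 7.59. IL-2 samples 3 and 4 and untreated samples 3 and 4 belonged to a low-intensity set of 12 samples with log2 medians between 5.70 and 5.90. Values are therefore given set by set, as log2 intensities of the gene's probe set as deposited, and the fitted log2 change allows for the set. Intensities of different probe sets are not compared, since probe sets differ in brightness. Among these 7 samples the set and the time in the title cannot be told apart. A fitted change is given as log2 IL-2 minus untreated ± its standard error (SE), with the adjusted p of limma, a linear model over all 19752 genes with Benjamini-Hochberg adjustment.

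The cell type was checked by lists of markers, each list's mean log2 intensity being taken minus the sample's median only to put both sets on 1 scale. No detection calls were used, so whether a single marker was present was not tested. Averaged over 16 NK markers, log2 intensities stood 3.57, 3.82, 3.64 and 3.68 above the sample's median in the 4 IL-2 samples, against 2.68, 1.99 and 1.99 in the 3 untreated samples. Of these markers 12 rose, and 1, Itgam, fell but did not pass without untreated sample 2 (adjusted p = 0.0607). All 16 also stand on lists of the IL-2 response, receptors or adhesion described below, so the marker level is not separate from those changes. The B cell marker list stood 2.56, 2.78, 2.52 and 2.63 above the median in the IL-2 samples, against 3.3, 2.79 and 2.79 in the untreated samples. The macrophage and monocyte list stood 0.01, 0.11, 0.44 and 0.56 above the median in the IL-2 samples, against 1.63, 1.67 and 1.69 in the untreated samples. On each of these 3 lists the groups did not overlap, on the B cell list by a narrow margin. In bulk samples such as these, fewer cells of a type and less RNA per cell cannot be told apart, and the part of any shift in cell types in the changes below was not tested.

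**Figure D1:**
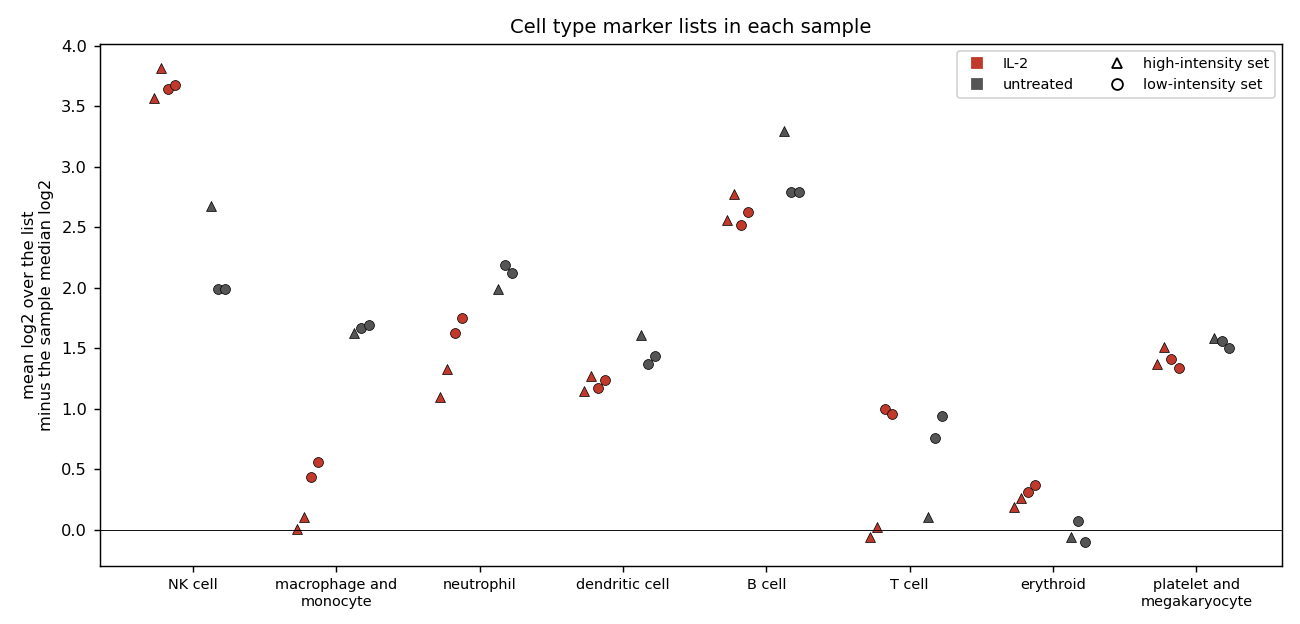
Mean log2 intensity of 8 marker lists minus the sample's median log2 intensity, 1 point per sample, with IL-2 samples in red to the left of untreated samples in grey; triangles are the high-intensity set and circles the low-intensity set. NK markers lie at 3.57, 3.82, 3.64 and 3.68 in IL-2 samples and at 2.68, 1.99 and 1.99 in untreated samples, and macrophage and monocyte markers lie lower in every IL-2 sample than in any untreated sample.

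At an adjusted p under 0.05, 1808 of 19752 genes changed (9.15%), of which 1296 rose (6.56%) and 512 fell (2.59%). Counts by list below stand beside the shares of 6.56% and 2.59% and were not tested against them. At least 2-fold changes were found in 334 rises (1.69%) and 120 falls (0.608%). Rises of at least 2 on the log2 scale numbered 61, against 21 falls of that size. The median change over all genes was -0.01, and 47.4% of genes lay above 0. Among the risers, 1158 of 1296 had every IL-2 sample above every untreated sample within both sets, and among the fallers 502 of 512 had every IL-2 sample below, against 11.2% and 6.4% of all genes. The calls came from the same samples, so these counts are a description. The scaling bears on the split: after quantile normalization within each set 1435 genes were higher and 1227 lower. Without untreated sample 2 the count of changed genes was 3069.

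**Figure D2:**
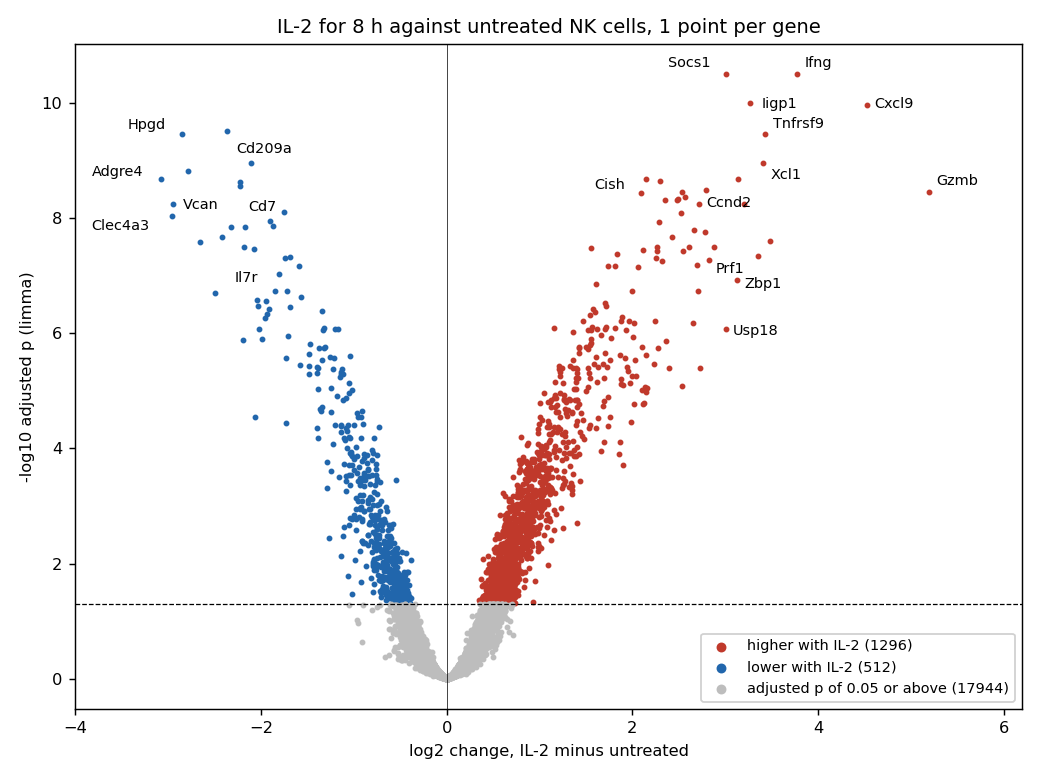
Volcano plot of 19752 genes, with the log2 change (IL-2 minus untreated) on the x axis and the negative log10 of the adjusted p on the y axis; the dashed line marks an adjusted p of 0.05. Red points are the 1296 genes that rose and blue points the 512 that fell, with Gzmb (5.19) farthest to the right and Adgre4 (-3.08) farthest to the left.

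The gene with the largest rise was Gzmb, which encodes granzyme B, the protease that triggers death of a target cell. Its log2 intensities were 13.4 and 13.44 in IL-2 samples 1 and 2, against 9.03 in untreated sample 2 of the same set. In the low-intensity set they were 12.17 and 12.03 in IL-2 samples 3 and 4, against 5.88 and 6.8 in untreated samples 3 and 4. Its lowest IL-2 value exceeded its highest untreated value by several doublings within each set, and the change was 5.19 ± 0.34 (adjusted p = 3.49e-09). Prf1, the gene of perforin, which opens the target cell membrane, measured 11.46 and 11.66 (log2) in the IL-2 samples against 9.21 in the untreated sample of the high-intensity set, and 10.12 and 10.002 against 6.79 and 6.99 in the low-intensity set. Both IL-2 samples lay above the untreated ones in each set, with a change of 2.82 ± 0.23 (adjusted p = 5.38e-08). Of 26 measured genes of cytotoxic granules and death ligands, 15 rose and 2 fell, with a median change of 0.59. The granule membrane gene Nkg7 rose by 2.35 ± 0.16. The serpin genes Serpinb9, known for shielding killer cells from their own granzyme B, and Serpinb9b rose by 2.55 ± 0.2 and 2.79 ± 0.18. The fallers were the lysosomal membrane gene Lamp1 (-0.48 ± 0.12) and the granzyme gene Gzmk (-0.89 ± 0.14). The call of Lamp1 ended without IL-2 sample 4 or untreated sample 2 or 4, with adjusted p from 0.0571 to 0.0742. The count of fallers was then 1, it was 3 without untreated sample 3, and it was 5 after quantile normalization. The count of risers was 12 without IL-2 sample 2, 3 or 4 or untreated sample 3 or 4.

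Several secreted signals of NK cells rose as well. Ifng, the gene of interferon-gamma, the cytokine by which NK cells activate macrophages, lay at 11.09 and 11.08 with IL-2 and 7.41 untreated in the high-intensity set (log2 intensity), and at 10.27 and 9.9 with IL-2 and 6.27 and 6.09 untreated in the low-intensity set. Its change was 3.78 ± 0.17, with the smallest adjusted p of all genes together with Socs1 (3.12e-11). Of 21 cytokine genes 8 rose and 1 fell, Il1b, a cytokine of monocytes and neutrophils (-1.25 ± 0.2). The risers with the smallest p after Ifng were Osm (oncostatin M, 1.56 ± 0.12), Flt3l (a growth factor of dendritic cell precursors, 1.17 ± 0.14), Mif (1.06 ± 0.16) and Lif (1.01 ± 0.16). Of 18 chemokine genes 6 rose and 2 fell, Ccl6 (-0.93 ± 0.21) and Ccl9 (-1.74 ± 0.14), which myeloid cells make. After quantile normalization 4 fell. Xcl1, which attracts cross-presenting dendritic cells, had log2 intensities of 11.26 and 11.31 with IL-2 against 8.31 untreated in the high-intensity set, and of 10.51 and 10.56 with IL-2 against 6.6 and 6.93 untreated in the low-intensity set. It changed by 3.41 ± 0.2 (adjusted p = 1.07e-09). The chemokine genes Ccl3 and Ccl4 rose by 2.88 ± 0.23 and 2.52 ± 0.18. The interferon-induced chemokine gene Cxcl9 measured 12.52 and 12.4 (log2) in the IL-2 samples against 7.77 in the untreated sample of the high-intensity set, and 10.97 and 10.72 against 6.23 and 6.35 in the low-intensity set. Its change of 4.52 ± 0.23 was the second largest rise, and that of Cxcl10 was 3.48 ± 0.27.

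Chains of the IL-2 receptor and its relatives split in direction. Of 7 measured chains that bind IL-2 or related cytokines, 4 rose and 2 fell. Il2ra, the alpha chain that makes the receptor high-affinity, lay at 10.86 and 11.03 with IL-2 and 9.05 untreated in the high-intensity set (log2 intensity), and at 9.82 and 9.48 with IL-2 and 7.01 and 7.34 untreated in the low-intensity set. It rose by 2.27 ± 0.18 (adjusted p = 3.73e-08). Among the other chains Il2rb, the beta chain shared with the IL-15 receptor, rose by 1.52 ± 0.16, Il15ra by 0.92 ± 0.14 and Il4ra by 0.7 ± 0.14. Il7r, the IL-7 receptor alpha chain, had log2 intensities of 8.57 and 8.94 with IL-2 against 10.86 untreated in the high-intensity set, and of 6.7 and 6.78 with IL-2 against 8.71 and 8.2 untreated in the low-intensity set. The IL-2 samples lay below the untreated samples in each set, and the change was -1.85 ± 0.17 (adjusted p = 1.84e-07). Il9r fell by 0.79 (SE 0.16). The seventh chain, Il21r, measured 0.35 ± 0.22 and was not called (adjusted p = 0.447), and its sign turned without untreated sample 3.

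Of 19 other cytokine receptor chains, 3 rose and 4 fell. Of all genes 6.56% rose and 2.59% fell, and the counts were not tested against those shares. In the low-intensity set alone 2 rose and none fell. Both chains of the IL-12 receptor rose, Il12rb1 by 1.69 ± 0.19 and Il12rb2 by 1.5 ± 0.18. Il18rap, the accessory chain of the IL-18 receptor, rose by 0.58 ± 0.18 (adjusted p = 0.0474). The falls were in Ifngr2, the signalling chain of the interferon-gamma receptor (-0.85 ± 0.16), Il6ra (-0.76 ± 0.16), Csf2ra (-0.7 ± 0.18) and Tgfbr1 (-0.51 ± 0.15). The count of falls was 2 without IL-2 sample 3, without IL-2 sample 4 and without untreated sample 4, and 7 without untreated sample 3, and it was 8 after quantile normalization. Il18rap did not pass without IL-2 sample 2, 3 or 4 or untreated sample 3 or 4 (adjusted p from 0.067 to 0.246). The call of Csf2ra ended without IL-2 sample 3 or 4 or untreated sample 4, with adjusted p from 0.067 to 0.143. Tgfbr1 did not pass without IL-2 sample 1, 3 or 4 or untreated sample 2 or 4 (adjusted p from 0.0534 to 0.129).

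Of 9 measured kinase and STAT genes, 2 rose and none fell. Stat2, which joins the interferon-induced complex ISGF3, measured 10.41 and 10.7 (log2) in the IL-2 samples against 9.64 in the untreated sample of the high-intensity set, and 9.82 and 9.72 against 7.04 and 7.98 in the low-intensity set. Its change was 1.74 ± 0.24 (adjusted p = 4.03e-05). Stat3 changed by 0.59 ± 0.16 (adjusted p = 0.0224), although its samples overlapped within the high-intensity set. The call of Stat3 ended without IL-2 sample 3 or 4 or untreated sample 3, with adjusted p from 0.0953 to 0.106. The list count was 1 without IL-2 sample 3, IL-2 sample 4 or untreated sample 3, and without the last of these 1 member fell. After quantile normalization 2 members fell. Jak1, the gene of a kinase on the receptor, measured -0.26 ± 0.12 and was not called (adjusted p = 0.238), although it passed as a fall after quantile normalization (-0.38, adjusted p = 0.00761) and without untreated sample 3 (-0.39, adjusted p = 0.0239). Stat5b measured -0.29 ± 0.18 (adjusted p = 0.42) and passed as a fall after quantile normalization (-0.47, adjusted p = 0.00523).

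Of 15 inhibitors of JAK-STAT signalling, 4 rose and none fell (1 fell after quantile normalization). These were all SH2-domain inhibitors of the SOCS family, which STAT factors induce and which then damp the receptor. Cish lay at 9.15 and 9.41 with IL-2 and 7.39 untreated in the high-intensity set (log2 intensity), and at 8.08 and 7.82 with IL-2 and 5.7 and 5.66 untreated in the low-intensity set. Its change was 2.1 ± 0.14 (adjusted p = 3.58e-09), and its samples lay close together within each group. Socs1, which inhibits JAK kinases directly, had log2 intensities of 10.68 and 10.79 with IL-2 against 7.91 untreated in the high-intensity set, and of 9.15 and 9.39 with IL-2 against 5.98 and 6.33 untreated in the low-intensity set. It rose by 3.01 ± 0.14 and Socs2 by 0.7 ± 0.15. Socs3 rose by 0.86 ± 0.15, but with the mean of its probe sets in place of the brightest it did not pass (0.32, adjusted p = 0.132).

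A list of 40 genes known for their response to IL-2 and STAT5 had 28 members higher and 1 lower, with a median of 1.04. The kinase genes Pim2 and Pim1, whose products promote survival and growth, rose by 2.42 ± 0.18 and 1.08 ± 0.2. Ccnd2, the gene of cyclin D2, which drives entry into the cell cycle, measured 11.56 and 11.81 (log2) in the IL-2 samples against 9.49 in the untreated sample of the high-intensity set, and 10.25 and 10.33 against 7.12 and 7.33 in the low-intensity set. It rose by 2.72 ± 0.19 (adjusted p = 5.55e-09). The costimulatory receptor gene Tnfrsf9, known as 4-1BB, rose by 3.43 ± 0.19, and Tnfrsf18, known as GITR, by 1.4 ± 0.18. The 1 faller was Tnfrsf1b, the second TNF receptor (-0.68 ± 0.16), and it did not pass without untreated sample 2 (adjusted p = 0.0535).

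The core of a STAT5 site is TTC and GAA with 3 bases of any kind between them, which reads the same on both strands. It was searched in promoters of GRCm38.p6 from RefSeq, 250 bases before to 50 after the start, with the start-site base counted as 0. It was found in 19.4% of the 31 matched promoters of the IL-2/STAT5 list and in 13.6% of those of genes that rose at least 2-fold, against 6.32% of those of genes that fell at least 2-fold, 7.8% of those of all genes tested and 8.47% of all promoters in the RefSeq table. The share was 24% for the type I interferon list, 40% for the interferon-gamma list and 19% for the ribosome biogenesis list, all described below. These lists had 25, 15 and 42 matched promoters, and genes that fell at least 2-fold had 95. The shares of these groups, here and below, thus rest on few genes. Shown are the 3 eligible matching members of the list with the smallest p, with the motif in capitals, 5′ to 3′ on the gene's strand. Members on some chromosomes were not eligible to be printed. The Cish window is chr9:107296409-107296708 (plus strand), with a match that starts at 0 and another at 11. The Gzmb window is chr14:56262285-56262584 (minus strand), with a match that starts at 37. The Tnfrsf18 window is chr4:156026072-156026371 (plus strand), with a match that starts at -99. A match is a run of letters, not a measured binding site.
Cish: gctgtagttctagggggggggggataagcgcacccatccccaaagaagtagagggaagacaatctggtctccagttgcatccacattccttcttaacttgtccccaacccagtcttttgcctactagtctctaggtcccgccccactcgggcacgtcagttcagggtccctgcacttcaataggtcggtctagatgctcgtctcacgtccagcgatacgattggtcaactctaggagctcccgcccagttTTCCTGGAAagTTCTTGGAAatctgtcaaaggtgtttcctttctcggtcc
Gzmb: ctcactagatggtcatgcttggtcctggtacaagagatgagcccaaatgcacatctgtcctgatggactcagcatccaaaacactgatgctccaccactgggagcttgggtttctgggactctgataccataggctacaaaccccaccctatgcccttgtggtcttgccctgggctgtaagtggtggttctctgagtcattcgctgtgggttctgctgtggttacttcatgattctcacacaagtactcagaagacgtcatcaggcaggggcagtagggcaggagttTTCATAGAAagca
Tnfrsf18: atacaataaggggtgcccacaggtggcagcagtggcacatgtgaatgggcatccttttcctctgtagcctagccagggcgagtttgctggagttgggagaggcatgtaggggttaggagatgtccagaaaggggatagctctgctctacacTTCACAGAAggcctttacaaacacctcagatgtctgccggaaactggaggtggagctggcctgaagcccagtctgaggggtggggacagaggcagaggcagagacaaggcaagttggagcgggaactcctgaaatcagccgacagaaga

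Genes that answer to interferons rose in the IL-2 samples. No interferon was among the stated treatments. Of 35 measured type I interferon-stimulated genes, 34 rose and none fell, with a median of 1.87. Zbp1, a sensor of Z-form nucleic acid, lay at 11.32 and 11.5 with IL-2 and 9.26 untreated in the high-intensity set (log2 intensity), and at 10.77 and 10.39 with IL-2 and 6.54 and 7.03 untreated in the low-intensity set. It changed by 3.13 ± 0.27 (adjusted p = 1.2e-07). Usp18, which damps interferon receptor signalling, had log2 intensities of 10.65 and 10.67 with IL-2 against 8.69 untreated in the high-intensity set, and of 10.15 and 9.41 with IL-2 against 5.78 and 6.44 untreated in the low-intensity set. It changed by 3.0 ± 0.3. In both genes untreated sample 2 lay nearer to its IL-2 samples than the untreated samples of the low-intensity set did to theirs. The antiviral genes Ifit3, Ifit2 and Ifit1 rose by 2.73 ± 0.31, 2.36 ± 0.25 and 2.11 ± 0.22, and Mx1 by 1.93 ± 0.19. Over the list the median difference was 1.11 in the high-intensity set and 2.34 in the low-intensity set.

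The core of the interferon-stimulated response element was taken as a pair of GAAA with 2 bases of any kind between them, searched on both strands (a pair of TTTC on the other strand). It was found in 40% of the 25 matched promoters of the list and in 14.3% of those of genes that rose at least 2-fold, against 8.42% of those of genes that fell at least 2-fold, 3.31% of those of all genes tested and 3.49% of all RefSeq promoters. The share was 40% for the interferon-gamma list, 6.45% for the IL-2/STAT5 list and 2.38% for the ribosome biogenesis list. The 3 shown have the smallest p among eligible matching members and carry the core in capitals. The Ifit1 window is chr19:34640639-34640938 (plus strand), with a match that starts at -104 and another at -85. The Ifit3 window is chr19:34583279-34583578 (plus strand), with a match that starts at -156 and another at -122. The Eif2ak2 window is chr17:78882523-78882822 (minus strand), with a match that starts at 18. Eif2ak2, which encodes the kinase PKR that halts translation on double-stranded RNA, rose by 1.95 ± 0.22.
Ifit1: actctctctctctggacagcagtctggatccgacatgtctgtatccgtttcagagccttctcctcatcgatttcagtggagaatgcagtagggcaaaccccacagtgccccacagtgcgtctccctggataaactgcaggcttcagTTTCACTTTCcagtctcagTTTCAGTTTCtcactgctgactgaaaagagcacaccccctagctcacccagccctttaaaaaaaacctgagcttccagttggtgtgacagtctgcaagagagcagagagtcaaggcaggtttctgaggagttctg
Ifit3: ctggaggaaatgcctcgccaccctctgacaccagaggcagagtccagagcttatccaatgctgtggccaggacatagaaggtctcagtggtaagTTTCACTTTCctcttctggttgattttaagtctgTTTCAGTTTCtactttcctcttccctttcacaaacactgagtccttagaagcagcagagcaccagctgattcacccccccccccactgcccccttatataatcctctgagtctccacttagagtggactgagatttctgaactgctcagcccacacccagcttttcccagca
Eif2ak2: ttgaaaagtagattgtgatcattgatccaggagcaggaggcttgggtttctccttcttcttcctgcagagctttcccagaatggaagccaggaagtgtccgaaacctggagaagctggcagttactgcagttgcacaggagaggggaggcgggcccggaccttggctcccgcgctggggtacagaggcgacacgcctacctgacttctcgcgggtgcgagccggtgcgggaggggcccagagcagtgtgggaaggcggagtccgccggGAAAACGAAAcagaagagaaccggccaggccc

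Of 23 genes known for their response to interferon-gamma, 18 rose and none fell, with a median of 1.28; Socs1, Cxcl9 and Cxcl10 are on this list too. The immunity GTPase gene Iigp1, whose product attacks vacuoles that hold parasites, measured 9.05 and 9.76 (log2) in the IL-2 samples against 5.72 in the untreated sample of the high-intensity set, and 7.49 and 7.31 against 4.31 and 4.43 in the low-intensity set. It rose by 3.27 ± 0.16 (adjusted p = 9.89e-11). The related GTPase genes Gbp4, Gbp5, Gbp7 and Irgm1 rose by 3.2 ± 0.22, 2.78 ± 0.21, 2.48 ± 0.17 and 2.71 ± 0.24. Of 16 genes of MHC class I peptide processing 13 rose and none fell. The peptide pump gene Tap1 rose by 1.28 ± 0.18, the immunoproteasome gene Psmb9 by 0.99 ± 0.17 and the proteasome activator gene Psme1 by 0.9 ± 0.15. Of 8 Schlafen genes, interferon-inducible growth regulators, 7 rose, led by Slfn5 (2.53 ± 0.31), Slfn1 (1.81 ± 0.18) and Slfn8 (1.69 ± 0.22). Their sequences are alike, so signal may be shared among the probe sets of the family.

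**Figure D3:**
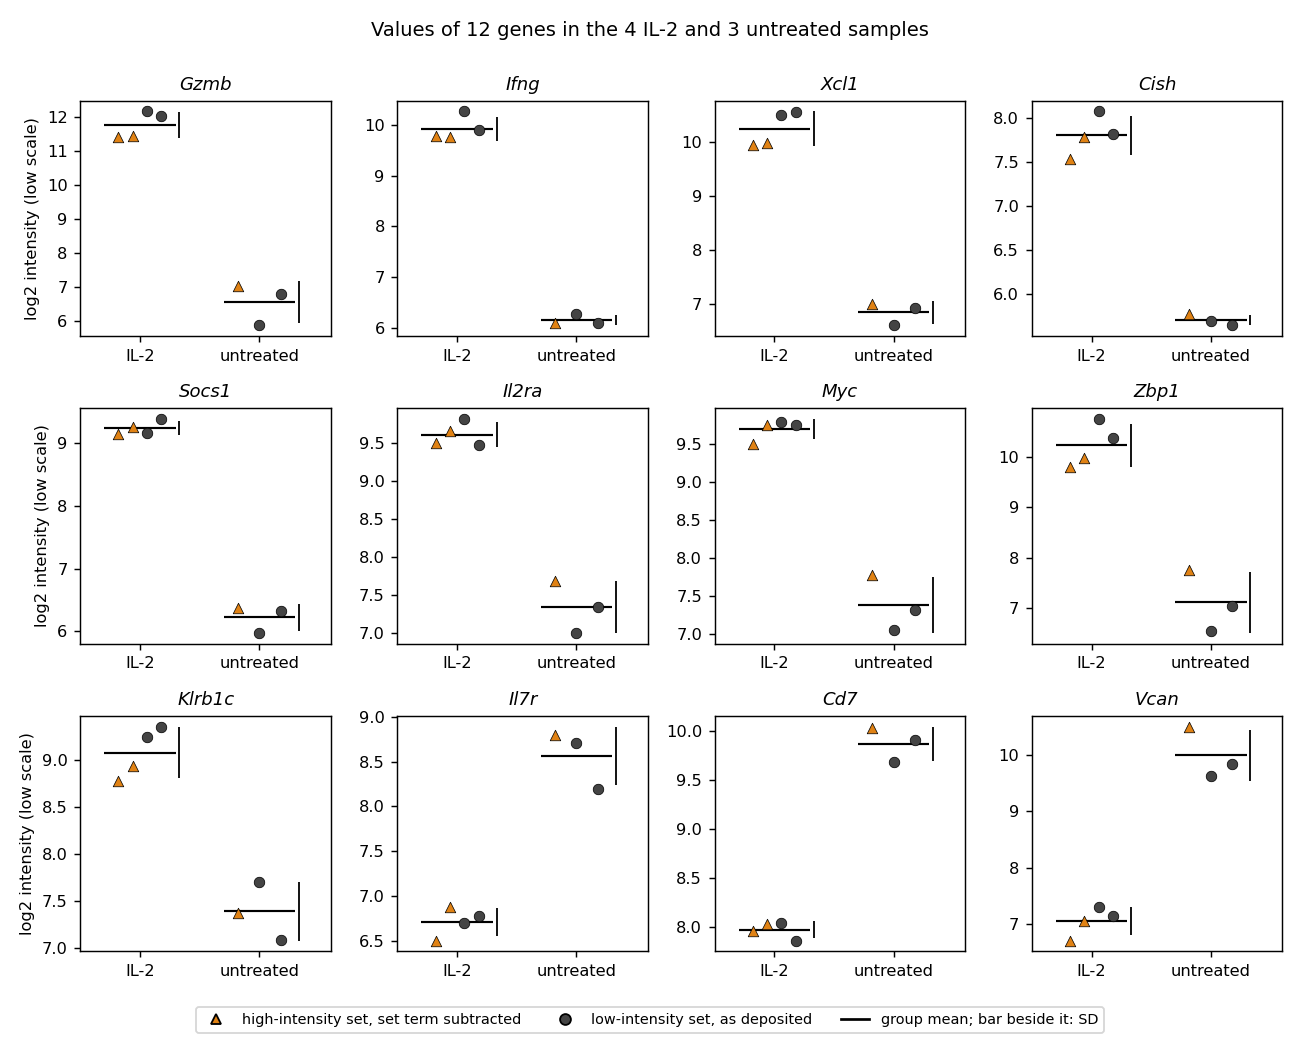
Log2 intensities of 12 genes in the 4 IL-2 samples (left in each panel) and the 3 untreated samples (right), on the scale of the low-intensity set; triangles are high-intensity samples after subtraction of the fitted set term, circles low-intensity samples as deposited, lines group means and bars beside them SDs. In each of the 12 panels the groups do not overlap: 9 genes lie higher with IL-2, and Il7r, Cd7 and Vcan lie lower.

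Genes of cell growth rose as well. Myc, which encodes a factor that drives ribosome production and metabolism, lay at 10.81 and 11.06 with IL-2 and 9.1 untreated in the high-intensity set (log2 intensity), and at 9.79 and 9.75 with IL-2 and 7.05 and 7.31 untreated in the low-intensity set. It rose by 2.32 ± 0.19 (adjusted p = 5.48e-08). Of 13 genes of the MYC and MAX network 5 rose and 1 fell. Besides Myc these were its relative Mycn (0.9 ± 0.2), the shared partner Max (0.77 ± 0.16), Mxd1 (0.77 ± 0.17) and Mlx (0.54 ± 0.15). The faller was Mxd4 (-0.83 ± 0.16), while its relative Mxd1 rose, and 2 members fell without untreated sample 3 or after quantile normalization. Mlx did not pass without IL-2 sample 2, 3 or 4 or untreated sample 3 or 4 (adjusted p from 0.0664 to 0.137).

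Of 47 measured ribosome assembly and nucleolar genes, 43 rose and none fell, with a median of 0.88. The count of risers ran from 34 to 45 when samples were left out in turn. Dkc1, the pseudouridine synthase of ribosomal RNA, had log2 intensities of 9.75 and 10.2 with IL-2 against 8.93 untreated in the high-intensity set, and of 7.66 and 7.64 with IL-2 against 5.72 and 5.89 untreated in the low-intensity set. It rose by 1.52 ± 0.17. Rrp1b rose by 1.53 ± 0.15, Gnl3 (nucleostemin) by 1.41 ± 0.17, Bysl by 1.4 ± 0.16 and the box C/D particle gene Nop58 by 1.39 ± 0.17. For the ribosome itself, of 22 cytosolic ribosomal protein genes none passed the test by limma in either direction, with a median of 0.04 and changes from -0.25 to 0.47. At an unadjusted p under 0.05 there was 1. Without untreated sample 2, 1 rose, and after quantile normalization 1 fell.

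MYC and its relatives bind the E-box CACGTG, which reads the same on both strands. It was found in 21.4% of the 42 matched promoters of the ribosome biogenesis list and in 12.8% of those of genes that rose at least 2-fold, against 4.21% of those of genes that fell at least 2-fold, 8.41% of those of all genes tested and 7.24% of all RefSeq promoters. Among all called genes it was in 12.2% of promoters of risers and 8.86% of those of fallers. The share was 9.68% for the IL-2/STAT5 list, 4% for the type I interferon list and 6.67% for the interferon-gamma list. The 3 shown are the eligible matching members with the smallest p. The Tsr1 window is chr11:74897830-74898129 (plus strand), with a match that starts at 24. The Wdr43 window is chr17:71615965-71616264 (plus strand), with a match that starts at 17. The Mybbp1a window is chr11:72441077-72441376 (plus strand), with a match that starts at 40. Tsr1 rose by 1.47 ± 0.2, Wdr43 by 1.19 ± 0.17 and Mybbp1a by 1.29 ± 0.19.
Tsr1: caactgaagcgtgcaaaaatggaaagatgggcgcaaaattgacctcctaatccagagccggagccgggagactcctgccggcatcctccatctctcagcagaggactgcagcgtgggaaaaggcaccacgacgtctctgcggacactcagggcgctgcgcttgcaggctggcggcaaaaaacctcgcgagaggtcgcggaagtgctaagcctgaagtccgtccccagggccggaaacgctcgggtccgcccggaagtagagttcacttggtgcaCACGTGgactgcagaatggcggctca
Wdr43: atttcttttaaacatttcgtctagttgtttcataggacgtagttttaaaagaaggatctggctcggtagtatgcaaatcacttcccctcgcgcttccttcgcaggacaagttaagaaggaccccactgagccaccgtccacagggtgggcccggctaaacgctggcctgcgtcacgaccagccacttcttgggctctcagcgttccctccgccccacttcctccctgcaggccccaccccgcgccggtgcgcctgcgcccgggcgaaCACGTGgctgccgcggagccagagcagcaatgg
Mybbp1a: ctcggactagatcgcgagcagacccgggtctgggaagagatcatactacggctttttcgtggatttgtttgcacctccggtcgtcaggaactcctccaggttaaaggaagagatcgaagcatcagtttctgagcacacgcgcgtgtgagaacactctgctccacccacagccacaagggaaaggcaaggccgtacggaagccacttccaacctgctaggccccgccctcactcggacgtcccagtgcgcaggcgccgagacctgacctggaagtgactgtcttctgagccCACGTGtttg

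Genes of precursor supply and translation rose too. Of 25 genes that make polyamines, nucleotides and one-carbon units 19 rose and none fell. From 16 to 21 rose when samples were left out in turn. Srm, spermidine synthase, measured 11.08 and 11.36 (log2) in the IL-2 samples against 9.25 in the untreated sample of the high-intensity set, and 10.18 and 10.09 against 7.71 and 8.16 in the low-intensity set. It rose by 2.12 ± 0.17 (adjusted p = 3.58e-08). Nme1 rose by 1.6 ± 0.22, the folate enzyme gene Mthfd1 by 1.54 ± 0.21, the pyrimidine synthesis gene Cad by 1.39 ± 0.21 and Ctps, CTP synthase, by 1.08 ± 0.15. Of 20 cytosolic aminoacyl-tRNA synthetase genes 14 rose and none fell, with 11 to 16 risers when samples were left out in turn. Wars, the tryptophanyl-tRNA synthetase gene, which interferon-gamma also induces, lay at 11.41 and 11.77 with IL-2 and 9.33 untreated in the high-intensity set (log2 intensity), and at 9.47 and 9.65 with IL-2 and 6.6 and 7.09 untreated in the low-intensity set. Its change was 2.53 ± 0.17, and that of Aimp2, which holds the synthetase complex together, was 1.1 ± 0.15. Of 19 translation factor genes 10 rose and none fell, among them Eif5a, whose product carries a modification made from spermidine (1.4 ± 0.28), and Eif4a1, the cap-complex helicase (0.6 ± 0.11). The count of these risers ran from 7 to 12 when samples were left out in turn.

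Of 26 genes of amino acid transport and ATF4 targets, 10 rose and 2 fell. Slc7a5, the carrier of large neutral amino acids, rose by 1.86 ± 0.2, the serine synthesis gene Psat1 by 1.56 ± 0.16, the arginine carrier Slc7a1 by 1.15 ± 0.14 and the glutamine carrier Slc1a5 by 0.94 ± 0.15. The fallers were the factor gene Cebpb (-0.65 ± 0.16) and Slc7a11, the cystine carrier. In Slc7a11 log2 intensities were 8.07 and 8.52 with IL-2 against 10.86 untreated in the high-intensity set, and 6.09 and 6.32 against 7.53 and 8.15 in the low-intensity set. Its change was -2.02 ± 0.2 (adjusted p = 8.43e-07). The count of risers was 6 without IL-2 sample 3 or IL-2 sample 4, and the count of fallers was 1 without untreated sample 2 or IL-2 sample 3. The call of Cebpb ended without IL-2 sample 3 or untreated sample 2, with adjusted p from 0.0522 to 0.0625. Of 19 glycolysis and glucose transport genes 5 rose and 1 fell (9 and none without untreated sample 2). The risers were Pfkp, a phosphofructokinase (1.39 ± 0.17), the lactate carrier Slc16a1 (1.03 ± 0.17), Ldha (0.85 ± 0.16), the glucose carrier Slc2a1 (0.73 ± 0.16) and Pgk1 (0.49 ± 0.14), while the lactate exporter Slc16a3 fell (-0.78 ± 0.19). Pgk1 did not pass without IL-2 sample 2, 3 or 4 or untreated sample 3 or 4 (adjusted p from 0.0689 to 0.17). Slc16a3 did not pass without untreated sample 2 (adjusted p = 0.0556). Of 25 sterol and fatty acid synthesis genes 2 rose, Fasn (1.11 ± 0.2) and Lss (0.81 ± 0.17), and Scd1 fell (-0.63 ± 0.14). These counts lay near the shares of all genes, 6.56% higher and 2.59% lower. Without untreated sample 2, 4 rose, and without untreated sample 3 or after quantile normalization 2 fell.

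Many protein folding genes rose. Of 23 cytosolic and mitochondrial chaperone genes 17 rose and none fell, among them the mitochondrial chaperonin Hspd1 (1.16 ± 0.14), the ring subunit Cct3 (1.34 ± 0.23) and the HSP90 co-chaperone Stip1 (0.97 ± 0.16). Of 25 endoplasmic reticulum chaperone and unfolded protein response genes 15 rose and none fell, including Hspa5, the main chaperone of that compartment (1.01 ± 0.15), Hyou1 (1.09 ± 0.18) and Creld2 (1.34 ± 0.2). When samples were left out in turn, the counts of risers on these lists ran from 12 to 19 and from 12 to 15. For mitochondrial and proteasome lists the counts also depended on single samples. Of 39 mitochondrial ribosomal protein genes 10 rose, of 48 oxidative phosphorylation subunit genes 8 and of 31 proteasome subunit genes 11, with medians of 0.4, 0.34 and 0.46 and none lower. Without untreated sample 2 the counts were 20, 19 and 20. Without IL-2 sample 1 they were 14, 13 and 16. Without any 1 of the other 5 samples they were 2 to 4, 1 to 6 and 4 to 6. Quantile normalization gave 5 for the oxidative phosphorylation list.

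Cell cycle genes changed in part. Of 44 genes of the G1 to S transition and replication 10 rose and none fell. Besides Ccnd2, the kinase gene Cdk6 rose by 1.63 ± 0.18, the polymerase subunit Pold2 by 1.35 ± 0.23, Ccnd3 by 0.97 ± 0.2 and Cdk4 by 0.8 ± 0.16. The count was 21 without untreated sample 2 and 6 without IL-2 sample 2 or IL-2 sample 4, and 1 member fell after quantile normalization. Of 9 cell cycle brakes 1 rose, the pocket protein gene Rbl1 (0.84 ± 0.17), and 2 fell, Rb1 (-0.76 ± 0.12) and the CDK inhibitor gene Cdkn1b (-0.65 ± 0.14). Of 31 genes of G2 and mitosis none rose and 1 fell, the phosphatase gene Cdc25b (-0.96 ± 0.16), and the median was -0.07. The 1 fall lay near the share of all genes that fell, 2.59%. Over these 31 genes changes ran from -0.96 to 0.23, and 2 fell after quantile normalization.

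Of 15 genes of the BCL2 family 4 rose and 1 fell. Bcl2, which blocks the mitochondrial path to cell death, measured 12.12 and 12.21 (log2) in the IL-2 samples against 10.04 in the untreated sample of the high-intensity set, and 10.69 and 10.71 against 7.94 and 8.64 in the low-intensity set. It rose by 2.29 ± 0.17 (adjusted p = 1.14e-08). Its relative Bcl2l1 rose by 1.04 ± 0.13. The pro-death genes Bak1 and Bid rose by 0.81 ± 0.16 and 0.81 ± 0.16, and the pro-death gene Bmf fell (-0.85 ± 0.15). The median of the family was -0.06, and the other 10 members did not pass the test.

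Genes of rapid signalling and its feedback also moved. Of 22 immediate early genes 10 rose and none fell, among them the AP-1 genes Jun (1.38 ± 0.17) and Fosl1 (1.22 ± 0.15), Egr1 (1.2 ± 0.16) and the nuclear receptor genes Nr4a3 (1.12 ± 0.18) and Nr4a2 (1.03 ± 0.16). Of 13 genes that damp MAP kinase signalling 6 rose, including Spred2 (1.43 ± 0.15), Spry4 (1.19 ± 0.15) and Dusp5 (0.94 ± 0.19). None of the 13 fell, and 1 did without untreated sample 3 or after quantile normalization. After quantile normalization 2 of the immediate early genes fell. Of 25 TNF receptor superfamily members, ligands and adaptors 7 rose and 1 fell, with Tnfrsf9, Tnfrsf18, Tnfsf8 (1.3 ± 0.19) and the death receptor gene Tnfrsf10b (0.99 ± 0.15) among the risers. The 1 faller was Tnfrsf1b. The risers numbered 4 without IL-2 sample 3, no member fell without untreated sample 2, and 2 fell after quantile normalization. Of 15 NF-kappaB subunits and inhibitors 2 rose, Nfkbiz (0.77 ± 0.16) and Bcl3 (0.55 ± 0.16). Of all genes 6.56% rose, and so small a count was not tested against that share. Of these 15 genes 5 rose without untreated sample 2, and 1 without any of the 4 IL-2 samples or untreated sample 3. None fell, and 5 fell after quantile normalization. Bcl3 did not pass without IL-2 sample 1, 2, 3 or 4 or untreated sample 3 (adjusted p from 0.051 to 0.169).

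Among the receptors by which NK cells see their targets, rises outnumbered falls. Of 21 activating and SLAM-type receptor genes 9 rose and 2 fell. Ncr1, the natural cytotoxicity receptor NKp46, lay at 12.11 and 12.04 with IL-2 and 10.05 untreated in the high-intensity set (log2 intensity), and at 10.46 and 10.41 with IL-2 and 7.89 and 8.14 untreated in the low-intensity set. It rose by 2.2 ± 0.18 (adjusted p = 4.91e-08). The activation marker Cd69 rose by 1.88 ± 0.18, Cd244a, known as 2B4, by 1.62 ± 0.16, the inhibitory receptor gene Tigit by 1.27 ± 0.16 and Klrk1, known as NKG2D, by 1.06 ± 0.18. Cd7 had log2 intensities of 9.24 and 9.31 with IL-2 against 11.31 untreated in the high-intensity set, and of 8.04 and 7.86 with IL-2 against 9.68 and 9.9 untreated in the low-intensity set. It fell by 1.9 (SE 0.14, adjusted p = 1.13e-08), with every IL-2 sample below every untreated sample of its set. The other faller was Fcgr3, an Fc receptor gene of NK and myeloid cells (-0.74 ± 0.19), and 4 fell after quantile normalization. Fcgr3 did not pass without untreated sample 3 (adjusted p = 0.084). Of 19 lectin receptor genes of the Klr and Ly49 families 10 rose and none fell. Klrb1c, which encodes the NK1.1 antigen named as the marker of these cells, measured 11.14 and 11.3 (log2) in the IL-2 samples against 9.74 in the untreated sample of the high-intensity set, and 9.25 and 9.36 against 7.7 and 7.08 in the low-intensity set. Its change was 1.69 ± 0.24 (adjusted p = 7.59e-05). Its relatives Klrb1a and Klrb1f rose by 2.66 ± 0.26 and 1.36 ± 0.15, and the Ly49 gene Klra3 by 1.52 ± 0.18. Ly49 genes are close copies of each other, so their probe sets may share signal. Without untreated sample 4, 1 member of the lectin list fell.

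Of 20 receptor adaptors and proximal kinases 8 rose and 1 fell. Sh2d1b2, an adaptor of SLAM-type receptors in NK cells, lay at 9.8 and 9.46 with IL-2 and 6.81 untreated in the high-intensity set (log2 intensity), and at 6.85 and 5.92 with IL-2 and 3.86 and 3.53 untreated in the low-intensity set. It rose by 2.7 ± 0.23, its neighbour in the family Sh2d1b1 by 1.32 ± 0.2, Prkcq by 1.33 ± 0.17 and Zap70 by 0.99 ± 0.18, while the kinase gene Syk fell (-0.71 ± 0.14). After quantile normalization 2 fell. Of 24 NK lineage transcription factor genes 7 rose and 2 fell. Tbx21, the gene of T-bet, had log2 intensities of 10.66 and 10.91 with IL-2 against 9.7 untreated in the high-intensity set, and of 8.96 and 8.94 with IL-2 against 6.68 and 7.24 untreated in the low-intensity set. It rose by 1.62 ± 0.19, Nfil3, needed early in the NK lineage, by 1.37 ± 0.21, Id2 by 1.36 ± 0.14, Runx3 by 1.24 ± 0.18 and Zbtb32 by 1.21 ± 0.14. The fallers were Zeb2 (-0.76 ± 0.12) and Id3 (-0.64 ± 0.17). Zeb2 passed whichever sample was left out, and then stood alone where Id3 was lost. Id3 did not pass without IL-2 sample 3 or untreated sample 2 or 4 (adjusted p from 0.0778 to 0.0923). Thy1, a surface glycoprotein of lymphocytes outside these lists, measured 11.36 and 11.73 (log2) in the IL-2 samples against 8.68 in the untreated sample of the high-intensity set, and 10.37 and 10.34 against 6.84 and 7.24 in the low-intensity set. It rose by 3.14 ± 0.2 (adjusted p = 2.1e-09).

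Of 29 FOXO targets and quiescence genes 6 fell and none rose (median -0.21). The falls numbered 10 without untreated sample 3 and 14 after quantile normalization. Besides Il7r and Cdkn1b, S1pr1, the receptor that guides lymphocytes out of tissue, fell by 0.92 (SE 0.12), Ypel3 by 0.84 (SE 0.14) and Klf3 by 0.67 (SE 0.15). Of 19 chemokine and sphingosine phosphate receptor genes 4 fell. Cxcr4, the receptor of the marrow chemokine CXCL12, lay at 10.77 and 10.88 with IL-2 and 11.92 untreated in the high-intensity set (log2 intensity), and at 9.04 and 9.14 with IL-2 and 9.99 and 10.23 untreated in the low-intensity set. It fell by 1.04 (SE 0.11, adjusted p = 2.48e-06). Cx3cr1, which monocytes also express, fell by 1.32 (SE 0.14) and Gpr183, an oxysterol receptor, by 0.97 (SE 0.13). The 1 riser of the 19 was Ccrl2 (0.76 ± 0.2), near the share of all genes that rose, 6.56%. The call of Ccrl2 ended without IL-2 sample 3 or 4 or untreated sample 3 or 4, with adjusted p from 0.0513 to 0.149. Without untreated sample 2, 2 members rose, and after quantile normalization 7 fell. Of 8 Gimap genes, GTPases of lymphocytes, 6 rose, led by Gimap4 (1.21 ± 0.14), Gimap7 (1.12 ± 0.14) and Gimap3 (1.02 ± 0.17), and none fell. Of 18 integrin and adhesion genes 3 rose, Itga2 (the DX5 antigen of NK cells, 1.13 ± 0.19), Icam1 (0.73 ± 0.16) and Itgal (0.65 ± 0.18), and 1 fell, Itgam (-0.78 ± 0.19). The shares of all genes were 6.56% higher and 2.59% lower, and these small counts were not tested against them. Without untreated sample 3, 2 members fell, and without untreated sample 2 none did. After quantile normalization 4 fell. Itgal did not pass without IL-2 sample 2, 3 or 4 or untreated sample 3 (adjusted p from 0.065 to 0.17).

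**Figure D4:**
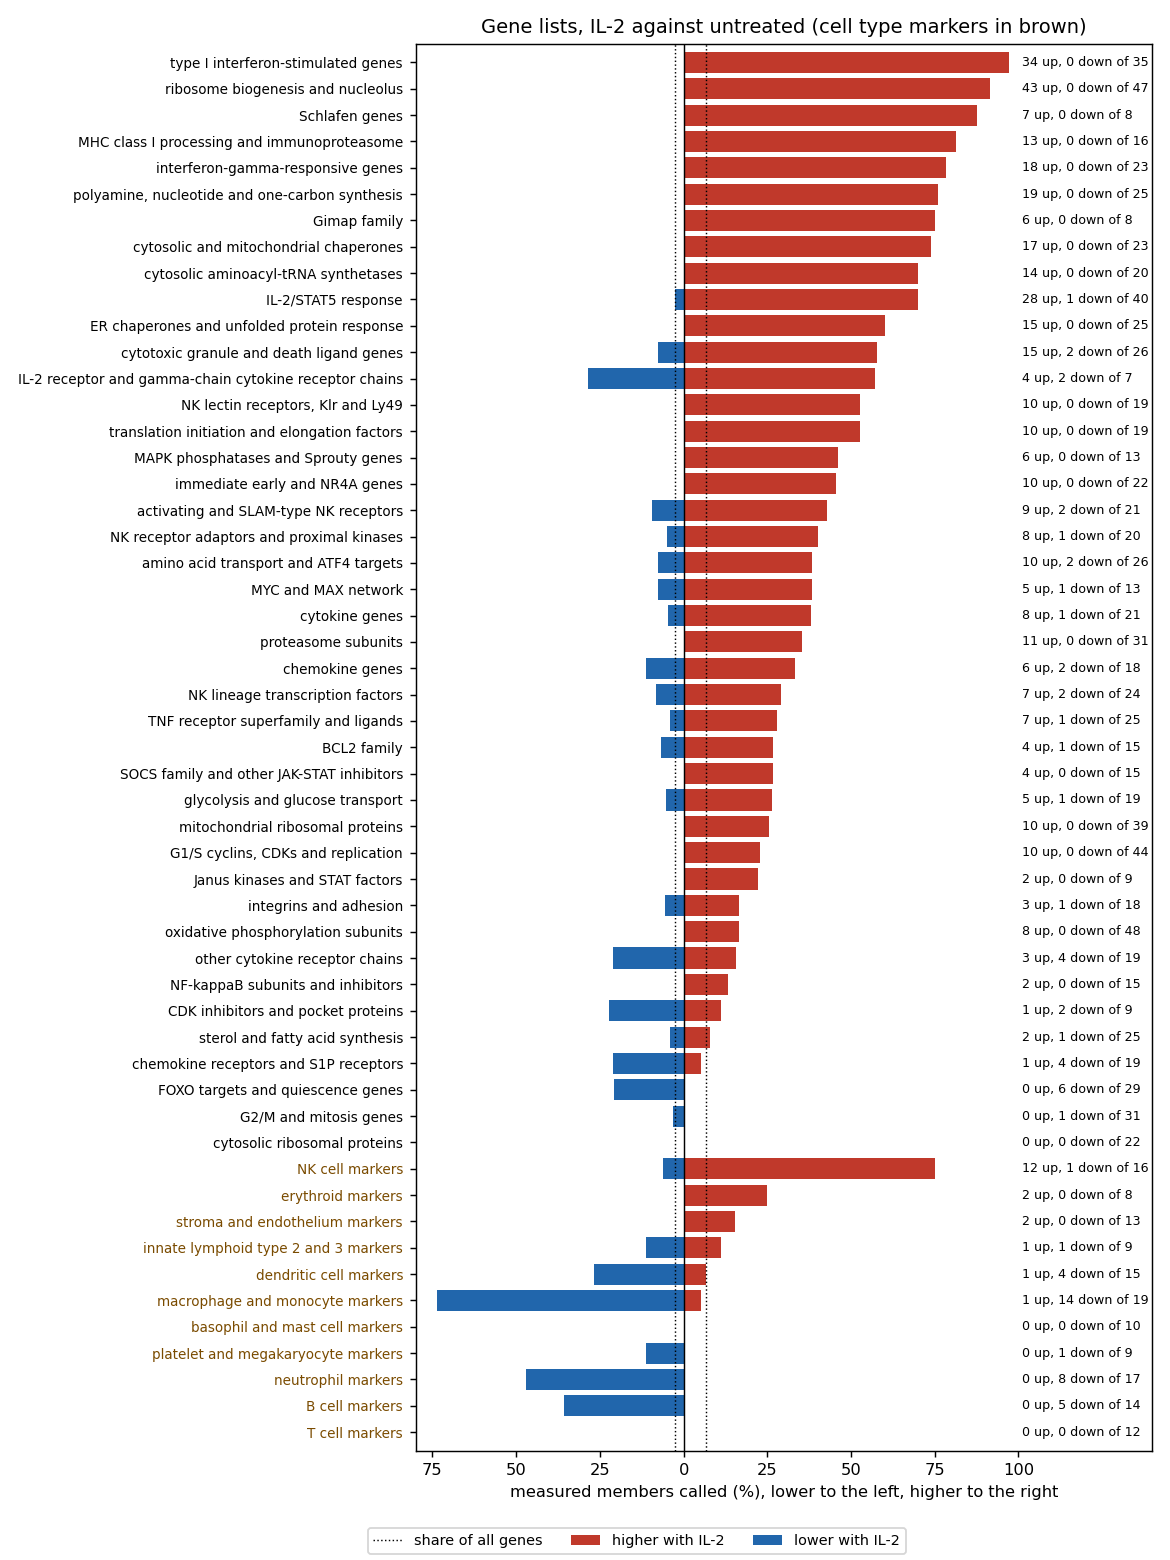
Share of the measured members of 42 response lists (black labels) and 11 cell type marker lists (brown labels) that rose (red, to the right) or fell (blue, to the left) with IL-2 at an adjusted p under 0.05; dotted lines mark the shares of all genes, 6.56% higher and 2.59% lower, and counts stand at the right. Type I interferon-stimulated genes (34 of 35 higher) top the response lists, and macrophage and monocyte markers (14 of 19 lower) reach farthest to the left.

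Many of the largest falls were in genes known from myeloid cells, and the markers of macrophages and monocytes stood lower in every IL-2 sample, as given above. Adgre4, an adhesion receptor gene of macrophages, had log2 intensities of 6.32 and 5.95 with IL-2 against 9.95 untreated in the high-intensity set, and of 3.97 and 4.39 with IL-2 against 6.71 and 6.86 untreated in the low-intensity set. It fell by 3.08 (SE 0.19, adjusted p = 2.1e-09). Vcan, which encodes the matrix proteoglycan versican of monocytes, measured 7.25 and 7.6 (log2) in the IL-2 samples against 11.06 in the untreated sample of the high-intensity set, and 7.29 and 7.13 against 9.63 and 9.84 in the low-intensity set. It fell by 2.95 (SE 0.2). Hpgd, which degrades prostaglandins, lay at 7.12 and 6.81 with IL-2 and 9.41 untreated in the high-intensity set (log2 intensity), and at 5.54 and 5.68 with IL-2 and 8.87 and 8.67 untreated in the low-intensity set. It fell by 2.85 (SE 0.16, adjusted p = 3.46e-10). Falls in lectin receptor genes were those of Clec4a3 (-2.95 ± 0.21), Clec4a1 (-2.79 ± 0.17), Clec4d (-2.37 ± 0.13), Clec4n (-2.32 ± 0.17), Clec4a2 (-2.19 ± 0.17) and Clec4e (-2.04 ± 0.19). The scavenger receptor gene Cd36 fell by 2.65 (SE 0.21), the RNA sensor gene Tlr8 by 2.41 (SE 0.18), the macrophage antigen gene Adgre1 by 2.17 (SE 0.16) and the fibronectin gene Fn1 by 2.06 (SE 0.27). Others among the 20 largest falls were Cd300ld (-2.22 ± 0.14), Ms4a4a (-2.19 ± 0.23), Dpep2 (-2.23 ± 0.14), Rnf128 (-2.04 ± 0.19) and the isocitrate dehydrogenase gene Idh1 (-2.07 ± 0.16).

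Counted by list, 14 of 19 markers of macrophages and monocytes fell and 1 rose, at a median change of -1.39; the list was chosen with earlier results of these data known and holds 6 of the 20 largest falls, so the count is not independent of them. The riser was the complement gene C1qb (0.48 ± 0.13). The call of C1qb ended without IL-2 sample 3 or 4 or untreated sample 2, with adjusted p from 0.0536 to 0.0996. Of 17 neutrophil markers 8 fell and none rose, led by Mmp8, the neutrophil collagenase (-2.5 ± 0.22), Csf3r (-1.04 ± 0.18), Retnlg (-1.0 ± 0.19) and S100a8 (-0.91 ± 0.18). From 6 to 9 neutrophil markers fell when samples were left out in turn, and 10 after quantile normalization. In the low-intensity set alone 1 fell, and Csf3r, Retnlg and S100a8 did not pass there (adjusted p from 0.124 to 0.159 by limma). Of 14 B cell markers 5 fell and none rose, namely Fcer2a, known as CD23 (-0.99 ± 0.15), Vpreb3 (-0.76 ± 0.12), Cr2 (-0.68 ± 0.17), Cd79b (-0.38 ± 0.09) and Fcrla (-0.47 ± 0.13). The count was 3 without untreated sample 2 or IL-2 sample 3, and 9 without untreated sample 3 or after quantile normalization. Cr2 did not pass without untreated sample 2 (adjusted p = 0.117). Cd79b did not pass without IL-2 sample 3 (adjusted p = 0.058). Fcrla did not pass without IL-2 sample 1, 2 or 3 or untreated sample 2 or 4 (adjusted p from 0.0513 to 0.0859). Of 15 dendritic cell markers 4 fell, Cd209a (-2.1 ± 0.12), Cd24a (-0.74 ± 0.15), Flt3 (-0.9 ± 0.2) and H2-Aa (-0.43 ± 0.13), and 1 rose, Clec9a (0.39 ± 0.12), a gene with tied values in the high-intensity set. The call of Clec9a ended without IL-2 sample 2, 3 or 4 or untreated sample 3 or 4, with adjusted p from 0.105 to 0.228. H2-Aa did not pass without IL-2 sample 1, 2, 3 or 4 or untreated sample 2 or 3 (adjusted p from 0.0702 to 0.165).

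Of 12 T cell markers none passed the test by limma, with a median of 0.01; 1 had an unadjusted p under 0.05, and 1 rose without untreated sample 2. None of 10 basophil and mast cell markers passed or had an unadjusted p under 0.05, and 1 fell after quantile normalization. Of 8 erythroid markers 2 rose, Car1 (1.25 ± 0.26) and Tfrc, the transferrin receptor that dividing cells also raise (1.04 ± 0.17), and without untreated sample 2 1 fell. Single changes were found among 9 platelet markers (Ppbp, -0.64 ± 0.18) and 9 markers of innate lymphoid types 2 and 3 (Gata3, 0.74 ± 0.2, besides Il7r). Of all genes 6.56% rose and 2.59% fell, and counts this small were not tested against those shares. Of 13 stroma and endothelium markers 2 rose, Kdr (0.73 ± 0.18) and Pecam1 (0.52 ± 0.16), both with tied values in the high-intensity set. The call of Ppbp ended without IL-2 sample 2, 3 or 4 or untreated sample 3, with adjusted p from 0.0548 to 0.179. Gata3 did not pass without IL-2 sample 2, 3 or 4 or untreated sample 3 (adjusted p from 0.0592 to 0.142). Without untreated sample 2, 2 members of the platelet list and 2 of the innate lymphoid list fell, and after quantile normalization 3 and 2 fell. The call of Kdr ended without IL-2 sample 4 or untreated sample 3, with adjusted p from 0.0746 to 0.0768. Pecam1 did not pass without IL-2 sample 2, 3 or 4 or untreated sample 3 or 4 (adjusted p from 0.109 to 0.172).

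The IL-2 change was also computed in each intensity set. The risers and fallers were called over both sets, so their values by set are a description, and the high-intensity set alone, with 1 untreated sample, gave 0 calls by limma (1264 at an unadjusted p under 0.05). The median difference of the risers was 0.433 in the high-intensity set and 0.95 in the low-intensity set, while that of the fallers was -0.871 and -0.666. Slfn5 differed by 1.32 in the high-intensity set and 3.33 in the low-intensity set, and Cxcl9 by 4.7 and 4.56. In a fit of the 7 samples with an interaction of group and set, 0 of 19752 genes (0%) passed an adjusted p under 0.05 by limma, while 2950 had an unadjusted p under 0.05. That is more genes than the unadjusted threshold alone would give by chance, and the cause was not tested. Without untreated sample 4, 21 genes passed the adjusted threshold. On simulated data with independent noise for each sample, the same interaction fit recovered 13 of 100 genes with a difference of 1 on the log2 scale. It recovered 99 of 100 with a difference of 2. Differences of the smaller size could thus mostly not be seen with these samples.

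**Figure D5:**
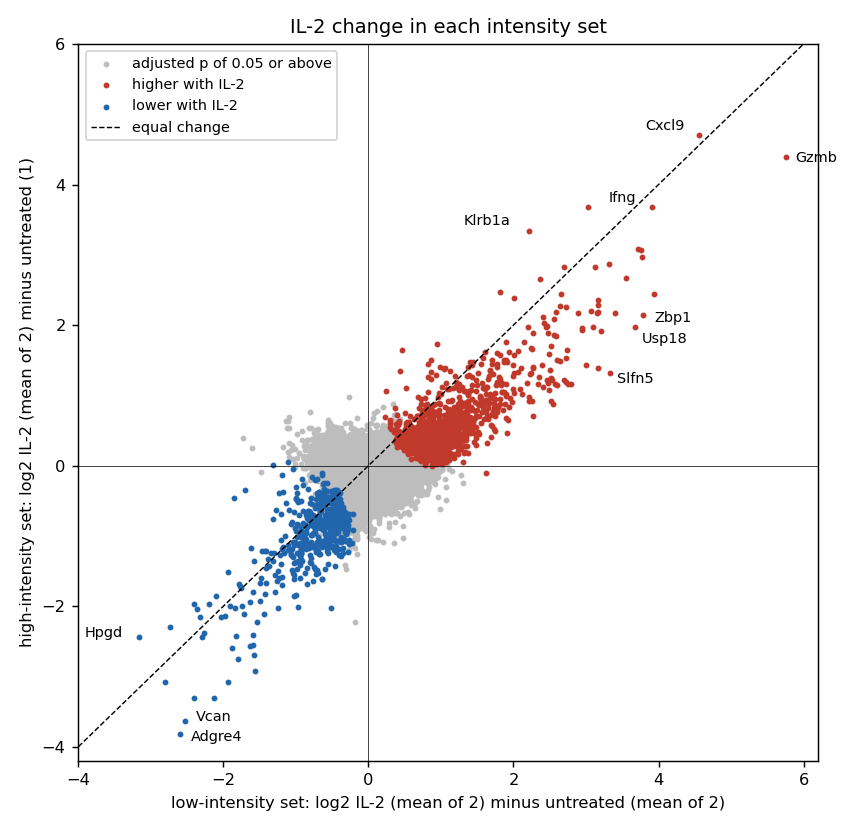
Difference in log2 intensity (IL-2 minus untreated) of each of 19752 genes in the low-intensity set (x axis, 2 samples against 2) and in the high-intensity set (y axis, 2 samples against 1), with risers in red, fallers in blue and the dashed line at equal change. Most risers lie below the line (median 0.433 in the high-intensity set and 0.95 in the low-intensity set), and Gzmb and Cxcl9 lie at the upper right.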

How the data were processed

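The authors deposited linear intensity values of Affymetrix Mouse Gene 1.0 ST arrays, made with Affymetrix Power Tools and RMA per the submitters' processing notes, with no version or setting. Signal over background and detection calls were not used here. The groups compared held 4 and 3 arrays, and what limits the precision was not tested. In the high-intensity set 20.0% of probe sets held a value shared by at least 3 samples, against 0% in the low-intensity set, and the labels do not say how the sets arose.

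Intensities were turned into log2. Of 24922 probe sets, 21425 had 1 gene symbol in the platform annotation, and for 921 genes with several probe sets the one with the highest mean was used, giving 19752 genes. A linear model with a mean for each of 9 groups and a set term was fitted to all 19 samples with limma 3.58.1 in R 4.3.3 (eBayes with an intensity trend, 9 residual and 10.5 prior degrees of freedom), and every adjusted p of a gene is from limma, two-sided. The set term had a median of 1.64 over genes (SD 0.38). A gene is called, or said to rise or fall, at an adjusted p under 0.05. Groups are shown as not overlapping where this holds within both sets. The interaction of group and set was fitted to the 7 samples alone with 3 residual degrees of freedom. On simulated data over 19752 genes, with independent noise for each sample, the fit of IL-2 against untreated recovered 99 of 100 genes changed by 1 on the log2 scale. It made 12 false calls. Shifts shared by the genes of a sample were not simulated, so recovery in the real data may be lower.

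The samples, the 42 response lists (951 of 1029 entries measured) and the 11 marker lists (142 of 159) were chosen with earlier results of these data known, and a gene may stand on several lists. Counts by list stand against 6.56% of all genes higher and 2.59% lower, and no list was tested against these shares. Genes named were drawn from the 20 largest rises and falls and from up to 5 members of each list with the smallest p. Others came from the receptor, kinase, STAT, inhibitor, MYC network and BCL2 lists and from a fixed set (Cish, Socs1, Socs2, Il2ra, Pim1, Pim2, Myc, Gzmb, Prf1, Bcl2, Ifng and Il7r). This rule gave 316 genes, and not all of them are named. The text names 212 genes, 209 of them called, so members that were not called are mostly left out. The genes whose promoters are printed were the matching list members with the smallest p, leaving out members on some chromosomes. Members named to complete a count of 5 or fewer (Lamp1, Gzmk, Il1b, Ccl6, Ccl9, Cebpb, Pgk1, Fcgr3, Zeb2, Id3 and C1qb) were chosen after their values were seen. Promoters of 300 bases came from RefSeq and were matched by symbol for 15435 of the 19752 genes. The alternatives were other scalings, filters, probe set rules and variance models, each set alone, a replicate block and each sample left out in turn. Python 3.11.15, numpy 2.4.6, pandas 2.3.3 and matplotlib 3.10.9 were used for counts and plots.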

Additional observations from a re-analysis of the deposited data

Results flagged for a closer look

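Of 212 named genes, 15 had 1 IL-2 sample far from the other 3, by Dixon's test of the gap over the range at its 95% critical value. Chance alone gives such a gap in about 1 in 20 groups. The gap is given in log2 units after subtraction of the set term. IL-2 sample 1 was the low one in 10 of the 15 genes, with gaps of 0.28 in Cdk4, 0.54 in Dusp5, 0.50 in Il21r, 0.24 in Mlx, 0.25 in Myc, 0.24 in Pecam1, 0.38 in Socs2, 0.37 in Tgfbr1, 0.34 in Thy1 and 0.48 in Tnfsf8. IL-2 sample 3 was the high one in Ifit1 (0.90), Cxcl10 (0.60), Slfn1 (0.51) and Il15ra (0.42), all known to respond to interferons. IL-2 sample 2 was the high one in Flt3l (0.14).

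Probe sets outside the main comparison changed as well. Of 2098 probe sets absent from the annotation table, 103 changed with IL-2 (4.91%), 69 higher and 34 lower. Of 1399 probe sets with several gene symbols, 95 changed (6.79%), 74 higher and 21 lower, against 7.89% of all 24922 probe sets. They were not assigned to genes.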

How the results depend on the processing

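Of 209 called genes named above, 150 kept their call and direction under every alternative except the high-intensity set alone, and 183 kept them whichever sample was left out. None turned in sign. Counts by list moved as well when samples were left out, also on lists for which no range is given above. The count of 1808 changed genes (1296 higher, 512 lower) ranged from 1210 to 3069 when samples were left out in turn, with 842 to 2283 higher and 354 to 786 lower. The upper ends came without untreated sample 2, and the cause was not tested. Leaving out dim genes, using other variance models or averaging probe sets gave totals from 1800 to 1974. With only the 7 samples fitted 1212 genes were called (833 higher), and after quantile normalization within each set 2662 (1435 higher, 1227 lower). The low-intensity set alone gave 962 (738 higher, 224 lower). The high-intensity set alone gave 0 in either direction by limma, with 1264 at an unadjusted p under 0.05 and 1 residual degree of freedom. The count of genes whose change differed between the sets, 0, was 1 with dim genes left out and 37 with tied genes left out, and from 0 to 21 when samples were left out. Leaving out untreated sample 2 could not be fitted there, as it is the only untreated sample of its set. Il21r, which did not pass, turned in sign in the high-intensity set alone (-0.214) and, when samples were left out, ranged from -0.042 to 0.643. With the replicate number as a replicate block in place of the set, 2437 genes were called (1650 higher, 787 lower). The labels do not say that a number marks a shared animal, culture or day, so the numbers were not taken to pair the samples. Deviations of same-numbered samples correlated at r = -0.19, 0.037 and -0.056 for numbers 2, 3 and 4. Those of unlike-numbered samples ran from -0.089 to 0.163. With so few samples these values can neither show nor exclude a pairing. No detection values were used, and changes in dim genes are limited by array background.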
